A study of Mus musculus with 12 samples.

Results

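The 10 genes described here, Dcn, Bgn, Lum, Smoc2, Abi3bp, Serpinf1, Nbl1, Pdgfra, Pdgfrl and Gsn, encode matrix proteins, secreted regulators and receptors that are typical of the fibro-adipogenic stromal cells of skeletal muscle. They were taken by symbol from the deposited abundance table, where all 10 were found among 10475 genes, and they were selected on earlier results of these data, namely their differences between transgenic and wild-type muscle at lights off and at lights on. The genotype differences below are therefore descriptions, without a test of the 10 genes. The change between both times over both genotypes did not choose the genes and was tested, although fibro-adipogenic markers were already known to stand higher at lights off in these libraries.

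Gastrocnemius, a calf muscle, of C57BL/6 mice aged 8 weeks was profiled by poly(A) RNA sequencing. Transgenic mice (TG) overexpress the transcriptional repressor E4BP4 (encoded by Nfil3) specifically in the liver, while the tissue measured is muscle, and they were compared with wild-type mice (WT). Tissue was collected at Zeitgeber time 12 (ZT12), when the lights went off, and at ZT0, when they went on, with 3 libraries for each of TG ZT12, WT ZT12, TG ZT0 and WT ZT0. All mice ate chow, were randomly fed, lived under 12 h of light and 12 h of dark and received no treatment. The promoter of the transgene is not named in the labels, nor do they say that each library is a separate mouse, so p-values measure only the spread between libraries, which may be technical.

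Fibro-adipogenic progenitors are the interstitial mesenchymal cells of muscle. They are recognised by the receptor Pdgfra, build the collagen matrix around the fibres, and can become fibroblasts or adipocytes after injury. Small leucine-rich proteoglycans such as decorin, biglycan and lumican bind collagen fibrils and set their thickness and spacing, and decorin and biglycan also bind growth factors of the TGF-beta family. E4BP4 is known to repress genes through D-box elements and is part of the output of the circadian clock.

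The 300 bases around the start of a member (250 before it, 50 after) were looked up in RefSeq (GRCm38.p6), which gave 7 windows for 5 of the 10 genes: 3 for Gsn and 1 each for Bgn, Nbl1, Pdgfra and Serpinf1. Shown are Serpinf1 (chr11:75422574-75422873, minus strand) and Nbl1 (chr4:139092921-139093220, minus strand), which had the most negative differences of the genotype effect between times, and Pdgfra (chr5:75152001-75152300, plus strand), which defines the cell type. They read 5′ to 3′ along the gene, and capitals mark, on either strand, the core AGGTCA of many nuclear receptor sites, the box CCAAT or the GC box GGGCGG.
Serpinf1: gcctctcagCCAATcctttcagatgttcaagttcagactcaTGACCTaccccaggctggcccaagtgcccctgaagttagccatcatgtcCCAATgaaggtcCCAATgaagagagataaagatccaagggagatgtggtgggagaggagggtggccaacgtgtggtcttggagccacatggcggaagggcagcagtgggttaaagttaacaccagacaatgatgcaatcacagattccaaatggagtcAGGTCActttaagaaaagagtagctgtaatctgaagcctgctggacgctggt
Nbl1: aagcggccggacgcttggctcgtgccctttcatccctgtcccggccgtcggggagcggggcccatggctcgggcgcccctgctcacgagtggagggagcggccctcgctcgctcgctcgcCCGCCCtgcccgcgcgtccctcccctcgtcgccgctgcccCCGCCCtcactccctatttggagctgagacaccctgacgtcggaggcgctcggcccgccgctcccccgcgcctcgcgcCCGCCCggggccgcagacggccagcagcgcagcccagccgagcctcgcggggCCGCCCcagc
Pdgfra: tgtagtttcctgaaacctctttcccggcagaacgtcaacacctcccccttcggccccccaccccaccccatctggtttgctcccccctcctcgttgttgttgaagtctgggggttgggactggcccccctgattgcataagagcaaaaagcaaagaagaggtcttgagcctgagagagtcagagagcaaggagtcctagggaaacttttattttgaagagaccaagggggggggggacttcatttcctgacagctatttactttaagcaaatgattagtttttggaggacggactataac
The D-box forms TTATGTAA and TTACGTAA were found on neither strand of the 7 windows, against 1.06% of the 32851 windows of the whole table, and the E-box CACGTG was found in 0 of 7, against 7.15%. AGGTCA was in 2 of 7 windows (16.3% of all), 1 of Gsn and that of Serpinf1. In Serpinf1 it lay on the plus strand with its first base 2 bases before the start, and on the minus strand 209 bases before it. CCAAT was in 3 windows (37.4% of all) and GGGCGG in 5 (35.7% of all), 4 times in Nbl1. These are matches of letters in short windows and say nothing of binding. Windows of Dcn, Lum, Smoc2, Abi3bp and Pdgfrl are not shown.

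Expression is given in TPM, an abundance scaled to transcript length and to the library's total, so that levels of different genes can be compared. Log2 differences below are of TPM + 1. Averaged over the 12 libraries, Gsn stood at 456 TPM, Dcn at 226 TPM, Serpinf1 at 57.8 TPM, Smoc2 at 44.6 TPM, Bgn at 25.3 TPM, Nbl1 at 16.4 TPM, Lum at 15.9 TPM, Pdgfra at 4.50 TPM, Abi3bp at 3.96 TPM and Pdgfrl at 2.28 TPM. Reads recovered from the TPM values ran from 34 for Pdgfrl in its lowest library to 31953 for Gsn in its highest, so the proteoglycans and Gsn rest on far more reads than Pdgfrl. All 10 genes had at least 1.5 TPM in every library and passed the filter on low values without the help of any 1 group. WT ZT12 had the highest mean of the 4 groups for all 10 genes. Differences between these groups chose the genes, so this rank is a description.

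Over all genes, 13125758 to 15779891 reads were recovered per library in TG ZT12, 17714911 to 20156003 in WT ZT12, 10387728 to 11451372 in TG ZT0 and 9213167 to 13148918 in WT ZT0. Genotype and depth cannot be told apart at ZT12, where every TG library was shallower than every WT library. The libraries TG ZT12 replicate 1 (median gene at 4.96 TPM) and WT ZT0 replicate 2 (median gene at 9.26 TPM) stood apart from the other 10. Median-of-ratios factors were 0.783 for the first and 1.29 for the second, so results that rest on them are given with other scalings or without them. Muscle Nfil3 was 13.5 ± 6.65 TPM in TG and 11.8 ± 3.79 TPM in WT at ZT12, and 16.0 ± 3.72 TPM in TG and 17.2 ± 1.42 TPM in WT at ZT0 (SD, n = 3 each). This overlap says nothing of the transgene, which acts in the liver.

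Decorin (Dcn, chr10:97482331-97518163 on mm10, plus strand) is the proteoglycan that coats collagen fibrils and binds TGF-beta. At ZT12 it stood at 229.9, 231 and 189.9 TPM in the TG libraries, against 271, 246 and 259.8 TPM in WT. At ZT0 decorin stood at 222, 251 and 224 TPM in TG, against 216, 186 and 189.7 TPM in WT. Every TG library lay below every WT library at ZT12 and above every WT library at ZT0. The TG mean differed from the WT mean by -16.2% at ZT12 and by 17.8% at ZT0, with log2 differences of -0.26 and 0.24 (SE 0.11 each). In order of level, WT ZT12 came first, then TG ZT0, TG ZT12 and WT ZT0, and each neighbouring pair in that order overlapped.

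The separation of decorin at ZT12 moved with the scaling of 1 library. TG ZT12 replicate 1, at 229.9 TPM as deposited, became 293.5 TPM after median-of-ratios scaling, the highest of the 12 libraries, against 231.99 to 266 TPM in WT ZT12. Without both libraries that stand apart, the log2 difference between TG and WT was -0.30 at ZT12 and 0.20 at ZT0.

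Lumican (Lum, chr10:97565501-97572703, plus strand) keeps collagen fibrils apart and lies 47.3 kb beyond the end of Dcn on the same strand. It stood at 15.5, 17.0 and 12.5 TPM in TG ZT12, against 14.0, 20.1 and 20.2 TPM in WT ZT12. In TG ZT0 it stood at 17.9, 17.7 and 14.7 TPM, against 16.2, 12.7 and 12.1 TPM in WT ZT0. The groups overlapped at both times, with 1 low WT ZT12 library and 1 high WT ZT0 library. The log2 differences between TG and WT, -0.25 at ZT12 and 0.28 at ZT0 (SE 0.17 each), were close in size to those of its neighbour Dcn with a wider error.

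Biglycan (Bgn, chrX:73483601-73495936, plus strand) is the closest relative of decorin among the members. It stood at 16.1, 27.7 and 20.5 TPM in TG ZT12, against 31.5, 31.3 and 28.9 TPM in WT ZT12, so that the groups did not overlap. The ZT0 values were 20.002, 22.6 and 24.1 TPM in TG, against 21.7, 40.3 and 19.0 TPM in WT. The value of 40.3 TPM is WT ZT0 replicate 2, one of the libraries that stand apart, and it is the highest Bgn value of all 12 libraries. With it the log2 difference at ZT0 was -0.20 (SE 0.24), and without it 0.12. At ZT12 the difference was -0.52 (SE 0.24), or -29.8% of the WT mean.

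Smoc2 (chr17:14279506-14404790, plus strand) encodes a secreted calcium-binding protein of the SPARC family. It stood at 45.2, 45.0 and 39.1 TPM in TG ZT12, against 46.3, 51.5 and 50.011 TPM in WT ZT12. Smoc2 at ZT0 stood at 44.5, 48.5 and 48.3 TPM in TG, against 41.1, 36.0 and 39.8 TPM in WT. As for Dcn, no TG library overlapped a WT library at either time, with TG lower at ZT12 and higher at ZT0. The log2 differences were -0.19 and 0.27 (SE 0.10 each), the smallest of the 10 genes in size at ZT12, and the gap between the closest libraries at ZT12 was about 1 TPM.

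Abi3bp (chr16:56477846-56690135, plus strand) encodes a secreted protein of the extracellular matrix. It stood at 2.68, 3.27 and 3.61 TPM in TG ZT12, against 5.41, 5.17 and 4.62 TPM in WT ZT12. The ZT0 levels were 3.18, 3.95 and 3.98 TPM in TG, against 3.72, 3.59 and 4.30 TPM in WT. The genotypes were apart at ZT12, with a TG mean that differed by -37.1%, and overlapped at ZT0. Its log2 differences were -0.54 at ZT12 and -0.05 at ZT0 (SE 0.15 each).

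Serpinf1 (chr11:75410029-75422623, minus strand) encodes pigment epithelium-derived factor, a secreted serpin without protease inhibition that is known to restrain vessel growth. It stood at 56.1, 65.3 and 44.3 TPM in TG ZT12, against 77.9, 68.8 and 72.6 TPM in WT ZT12. The TG libraries at ZT0 held 52.5, 58.4 and 54.4 TPM, against 52.4, 46.9 and 43.6 TPM in WT. No TG library overlapped a WT library at either time, but at ZT0 the closest libraries, 52.5 TPM in TG and 52.4 TPM in WT, were nearly level. The log2 differences were -0.41 at ZT12 and 0.21 at ZT0 (SE 0.13 each), and the change of the genotype effect between times, -0.62 (SE 0.19), was the largest in size of the 10 genes.

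Nbl1 (chr4:139082292-139092970, minus strand) encodes DAN, a secreted antagonist of bone morphogenetic proteins (BMP). It stood at 14.5, 15.3 and 12.5 TPM in TG ZT12, against 23.1, 16.8 and 20.7 TPM in WT ZT12. Levels at ZT0 were 14.7, 17.5 and 15.5 TPM in TG, against 15.6, 15.7 and 14.7 TPM in WT. WT ZT12 lay above TG ZT12 in every library, and the ZT0 groups overlapped almost fully. The TG mean differed by -30.3% at ZT12 and by 3.83% at ZT0, and the log2 differences were -0.49 and 0.05 (SE 0.13 each).

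Pdgfra (chr5:75152251-75198206, plus strand) encodes the PDGF receptor by which fibro-adipogenic cells are sorted. It stood at 3.09, 5.90 and 3.93 TPM in TG ZT12, against 4.99, 5.01 and 4.85 TPM in WT ZT12. At ZT0 it stood at 4.66, 5.57 and 3.75 TPM in TG, against 3.47, 5.13 and 3.62 TPM in WT. All 4 groups overlapped, and TG ZT12 held both the lowest and the highest library. The log2 differences between TG and WT were -0.20 at ZT12 and 0.16 at ZT0 (SE 0.21 each), both within their error. Exons of Pdgfra overlap 2 genes on the opposite strand, Gm42802 and Gm42803, and the microRNA gene Mir7025, and since the library kit does not mark strand their reads cannot be told apart.

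Pdgfrl (chr8:40926233-40990770, plus strand) encodes a protein that resembles the extracellular part of the PDGF receptors and lacks their kinase. It stood at 2.05, 2.09 and 1.65 TPM in TG ZT12, against 3.14, 2.71 and 3.99 TPM in WT ZT12. At ZT0 it stood at 1.89, 2.15 and 1.52 TPM in TG, against 2.05, 2.23 and 1.90 TPM in WT. WT ZT12 was above every other library, with a TG mean that differed from that of WT by -41.0% at ZT12, while the other 3 groups overlapped. The log2 differences of -0.54 at ZT12 and -0.11 at ZT0 (SE 0.16 each) are understated by the pseudocount of 1 at this low level: at ZT12 the value was -0.72 with a pseudocount of 0.1 and -0.25 with a pseudocount of 5.

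Gsn (chr2:35256359-35307902, plus strand) encodes gelsolin, which cuts and caps actin filaments and is made both as a cytoplasmic and as a secreted form. It stood at 354, 463 and 418 TPM in TG ZT12, against 511, 459 and 517 TPM in WT ZT12. At ZT0 it stood at 437, 592 and 427 TPM in TG, against 465, 436 and 394 TPM in WT. The genotypes overlapped at both times, at ZT12 by 1 library on each side. The log2 differences were -0.27 at ZT12 and 0.16 at ZT0 (SE 0.14 each), and the value at ZT0 was 0.0055 without TG ZT0 replicate 2, the library at 592 TPM.

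In the order of group means below WT ZT12, TG ZT0 came next for Gsn, Dcn, Smoc2, Nbl1, Lum and Pdgfra, WT ZT0 for Bgn, Abi3bp and Pdgfrl, and TG ZT12 for Serpinf1. Neighbours in that order overlapped in their libraries, except WT ZT12 above TG ZT12 and TG ZT0 above WT ZT0 for Serpinf1, and WT ZT12 above WT ZT0 for Abi3bp and for Pdgfrl. Between its highest and lowest library Pdgfrl spanned 2.62 times and Smoc2 1.43 times, the widest and the narrowest span of the 10 genes.

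**Figure D1:**
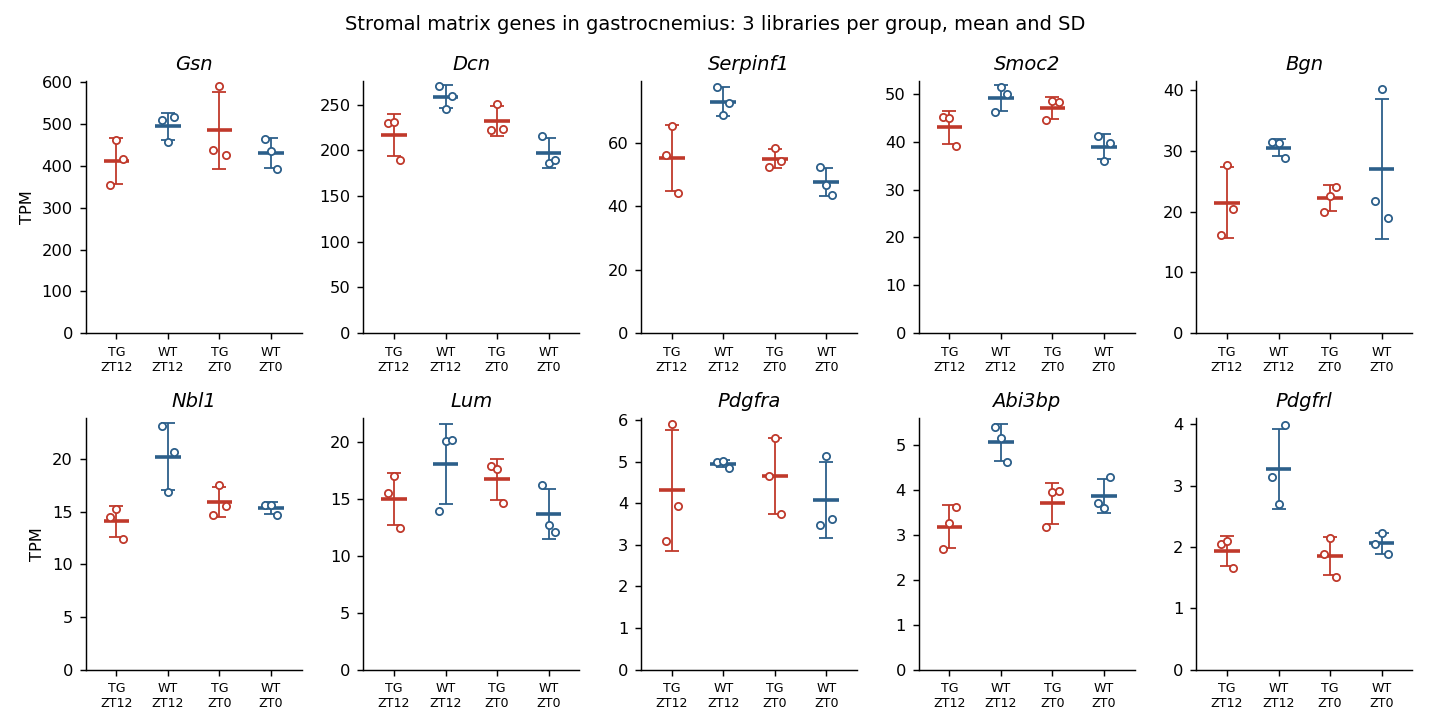
TPM of the 10 genes in TG ZT12, WT ZT12, TG ZT0 and WT ZT0 (one panel per gene, linear axis from 0; open circles are the 3 libraries of a group, the thick line is the mean and the bar the SD). WT ZT12 has the highest mean in all 10 panels, a rank that the choice of the genes favours. The single high WT ZT0 value of Bgn, 40.3 TPM, stands out.

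Set side by side at ZT12, the log2 difference between TG and WT was below 0 for all 10 genes, with a median of -0.34 and a range from -0.54 (Abi3bp) to -0.19 (Smoc2). The median over all 10415 genes tested was -0.07, and 76.6% of them lay below 0. In 7 of the 10 genes (Dcn, Bgn, Serpinf1, Smoc2, Abi3bp, Pdgfrl and Nbl1) every TG library was below every WT library, which held for 4.26% of all genes. This count was 2 (Bgn and Abi3bp) after median-of-ratios scaling and 4 (Bgn, Abi3bp, Pdgfrl and Gsn) after upper-quartile scaling, against 3% and 3.09% of all genes, while all 10 genes stayed below 0 under both. Without both libraries that stand apart the count was 7, against 9.91% of all genes. In whole muscle, fewer cells of a type and less RNA per cell cannot be told apart. Over the whole table this comparison gave 0 limma calls (0%). An unadjusted p under 0.05 was reached by 99 genes with limma and by 191 with limma-voom, which also gave 0 calls.

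At ZT0 the difference between TG and WT was above 0 for 7 of the 10 genes, with a median of 0.16 and a range from -0.20 (Bgn) to 0.28 (Lum). Over all genes the median was -0.10, and 23.5% lay above 0. Upper-quartile scaling moved the median of all genes at ZT0 to 0.01, a shift of over 0.1, and the median of the 10 genes to 0.27, with 8 of 10 above 0. Every TG library was above every WT library in 3 genes, Dcn, Serpinf1 and Smoc2 (1.4% of all genes). After median-of-ratios scaling this held for 2 (Smoc2 and Pdgfra; 2.88% of all genes) and after upper-quartile scaling for 3 (Dcn, Smoc2 and Pdgfra; 3.64%). Without WT ZT0 replicate 2, a library that stands apart, it held for 4 (7.97% of all genes). The median of all genes was then 0.02. The median of the 10 genes was 0.03 without TG ZT0 replicate 2, and without that library Nbl1 lay at -0.02. Limma and limma-voom each gave 0 calls over the whole table (0%), and 117 and 125 genes reached an unadjusted p under 0.05.

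The genotype effect at ZT12 less that at ZT0 was negative for all 10 genes, where 42.8% of all genes were negative. It ran from -0.62 (Serpinf1) over -0.53 (Nbl1), -0.52 (Lum), -0.49 (Dcn and Abi3bp), -0.46 (Smoc2), -0.43 (Pdgfrl and Gsn) and -0.36 (Pdgfra) to -0.33 (Bgn), with a median of -0.47 against 0.03 over all genes. The choice of the genes used this difference, so these values are given as a description. Over the whole table the interaction gave 0 calls (0%) with either limma or limma-voom, where 69 and 112 genes reached an unadjusted p under 0.05. Dcn, Serpinf1 and Smoc2, in which TG lay wholly below WT at ZT12 and wholly above it at ZT0 (0.096% of all genes), did so neither after median-of-ratios nor after upper-quartile scaling.

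**Figure D2:**
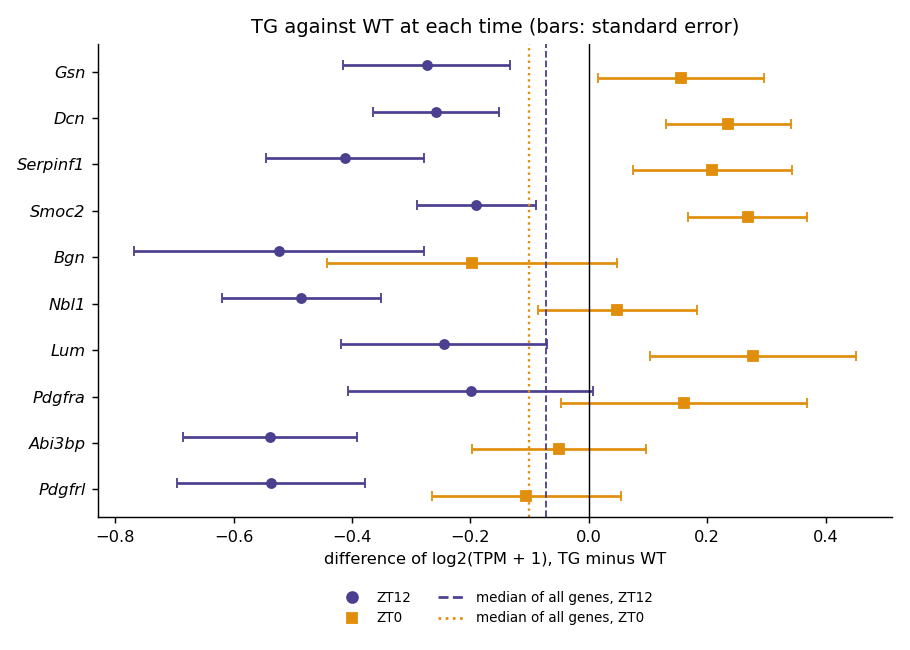
Log2 difference of TG minus WT for the 10 genes at ZT12 (circles) and at ZT0 (squares), on the log2(TPM + 1) scale, with bars for the standard error and vertical lines for the median of all genes. All 10 ZT12 values lie below 0, from -0.54 to -0.19, and 7 of 10 ZT0 values lie above it.

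The authors' deposited table of comparisons holds its own log2 fold changes of TG over WT at each time. In the authors' deposited table all 10 genes were negative at ZT12, from -0.13 (Gsn) to -0.02 (Pdgfra), and 9 of 10 were positive at ZT0, up to 0.19 for Dcn, with Bgn at -0.02. Of the positive genes, Pdgfrl (0.0020) and Abi3bp (0.0028) were barely so. These sizes are not on the scale of the TPM + 1 differences above. The authors' log2 values per library are drawn towards the gene's mean. In them Dcn overlapped between genotypes at both times, with TG ZT12 replicate 1 (7.93) above every WT ZT12 library and WT ZT0 replicate 1 (7.707) above TG ZT0 replicate 1 (7.701). The adjusted p of every member was 0.9999 in the authors' deposited table.

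The change between times over both genotypes was the comparison that the choice of genes had not used. Serpinf1 had the largest value, a log2 difference of 0.30 (SE 0.09) between ZT12 and ZT0 with a limma adjusted p of 0.293, which does not pass 0.05. Its adjusted p ran from 0.0791 to 0.627 over 23 alternatives. Pdgfrl followed with 0.26 (SE 0.11, limma adjusted p = 0.67) and Dcn with 0.15 (SE 0.08, limma adjusted p = 0.865). Lum (0.11), Smoc2 (0.10), Nbl1 (0.10), Bgn (0.08), Abi3bp (0.07), Pdgfra (0.06) and Gsn (-0.01) each had a limma adjusted p of 0.997.

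Limma called 0 of the 10 genes in this comparison, where 0.883% of all genes were called (37 higher and 55 lower at ZT12), and 2 of the 10, Serpinf1 and Pdgfrl, had an unadjusted p under 0.05, as did 708 of all 10415 genes (6.8%). The calls were 324 higher and 95 lower without both libraries that stand apart, and 100 higher and 57 lower without TG ZT12 replicate 1 alone. Limma-voom also called 0 of the 10. The median of the 10 genes was 0.10, against -0.03 over all genes, and 9 of 10 lay above 0, against 40.6% of all genes. This background rests on the libraries that stand apart: without both, the median of all genes was 0.09. With 1 library left out, the median of the 10 genes was 0.07 to 0.14. After median-of-ratios or upper-quartile scaling 10 of 10 lay above 0.

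In WT muscle all 10 genes stood higher at ZT12 than at ZT0, as deposited and after both scalings, by a log2 difference from 0.20 (Gsn) to 0.61 (Serpinf1), with a median of 0.35 against -0.05 over all genes, of which 39.8% lay above 0. As a share of the mean, Pdgfrl was 59.1% higher at ZT12, Serpinf1 53.4%, Lum 32.1%, Nbl1 31.7%, Dcn 31.2%, Abi3bp 30.9%, Smoc2 26.4%, Pdgfra 21.5%, Gsn 14.8% and Bgn 13.2%. In 6 genes (Dcn, Serpinf1, Smoc2, Abi3bp, Pdgfrl and Nbl1) every WT ZT12 library was above every WT ZT0 library, against 5.62% of all genes, and this count was 6 after median-of-ratios and 7 after upper-quartile scaling, against 7.54% and 8.52% of all genes. Without WT ZT0 replicate 2, a library that stands apart, the count was 8, against 26.7% of all genes. The median of all genes was then 0.08. Limma called 0 of the 10 genes in WT, where 0.115% of all genes were called (2 higher, 10 lower; 29 higher and 26 lower with median-of-ratios scaling, 24 and 23 with upper-quartile scaling, and 23 and 33 with limma-voom). The smallest adjusted p among the 10 was 0.144 for Serpinf1 (0.0592 to 0.632 over 24 alternatives), and 5 of them had an unadjusted p under 0.05, as did 484 of all 10415 genes (4.65%). The WT libraries of both times also entered the comparisons by which the genes were chosen, so nothing is read from these counts.

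In TG muscle 9 of the 10 genes stood lower at ZT12 than at ZT0 (8 after median-of-ratios scaling). The log2 difference ran from -0.23 (Gsn) to 0.04 (Pdgfrl), with a median of -0.12 against -0.01 over all genes, of which 53.3% lay below 0. The libraries of both times overlapped for all 10 genes, where 3.21% of all genes were separate and higher and 3.87% separate and lower. After upper-quartile scaling Gsn was separate and lower. Limma called 0 of them (0.154% of all genes were called), with 0 at an unadjusted p under 0.05. As in WT, the TG libraries of both times entered the choice of the genes, so nothing is read from these counts. Dcn stood at 217 ± 23.4 TPM in TG ZT12 and 232 ± 16.4 TPM in TG ZT0, and Serpinf1 at 55.3 ± 10.5 TPM and 55.1 ± 3.01 TPM (SD, n = 3 each). In WT, Dcn stood at 259 ± 12.7 TPM at ZT12 and 197 ± 16.2 TPM at ZT0, and Serpinf1 at 73.1 ± 4.57 TPM and 47.6 ± 4.45 TPM. The test of whether the change between times differs by genotype is the interaction above, which gave 0 calls.

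**Figure D3:**
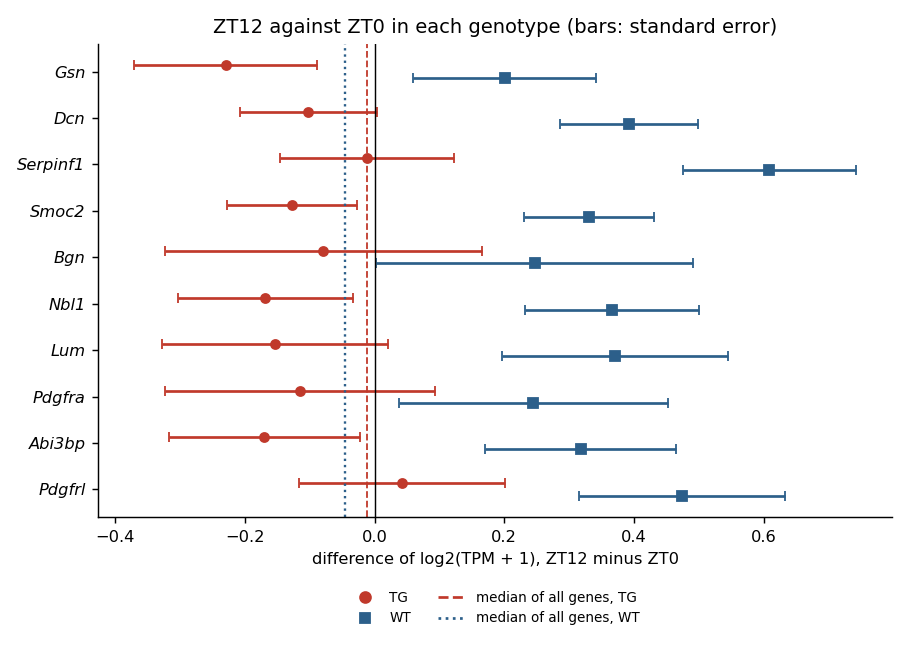
Log2 difference of ZT12 minus ZT0 for the 10 genes in TG (circles) and in WT (squares), on the log2(TPM + 1) scale, with bars for the standard error and vertical lines for the median of all genes. WT values run from 0.20 to 0.61 and TG values from -0.23 to 0.04.

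Red cell markers, which include haemoglobin genes, also had their highest levels at ZT12. The summed TPM of the 5 genes in the table was 145 to 4565 in TG ZT12, 176 to 4257 in WT ZT12, 110 to 156 in TG ZT0 and 86.2 to 163 in WT ZT0. Depth was also greater at ZT12 in most libraries. The part of either in the values of the 10 genes was not tested.

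Over the 10 genes, the mean deviation from each gene's 12-library mean was 0.25, 0.20 and 0.28 (log2) in the WT ZT12 libraries, and -0.20, 0.06 and -0.23 in TG ZT12. It was -0.07, 0.11 and -0.07 in TG ZT0 and -0.08, -0.04 and -0.21 in WT ZT0. The WT ZT12 libraries were the only 3 above 0.2, and TG ZT12 replicate 2 was the single TG ZT12 library above 0. The choice of the genes used these libraries, so their order is a description. After median-of-ratios scaling TG ZT12 replicate 1 stood at 0.12 and WT ZT0 replicate 2 at -0.37, and WT ZT12 replicates 1 and 3 stayed highest.

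**Figure D4:**
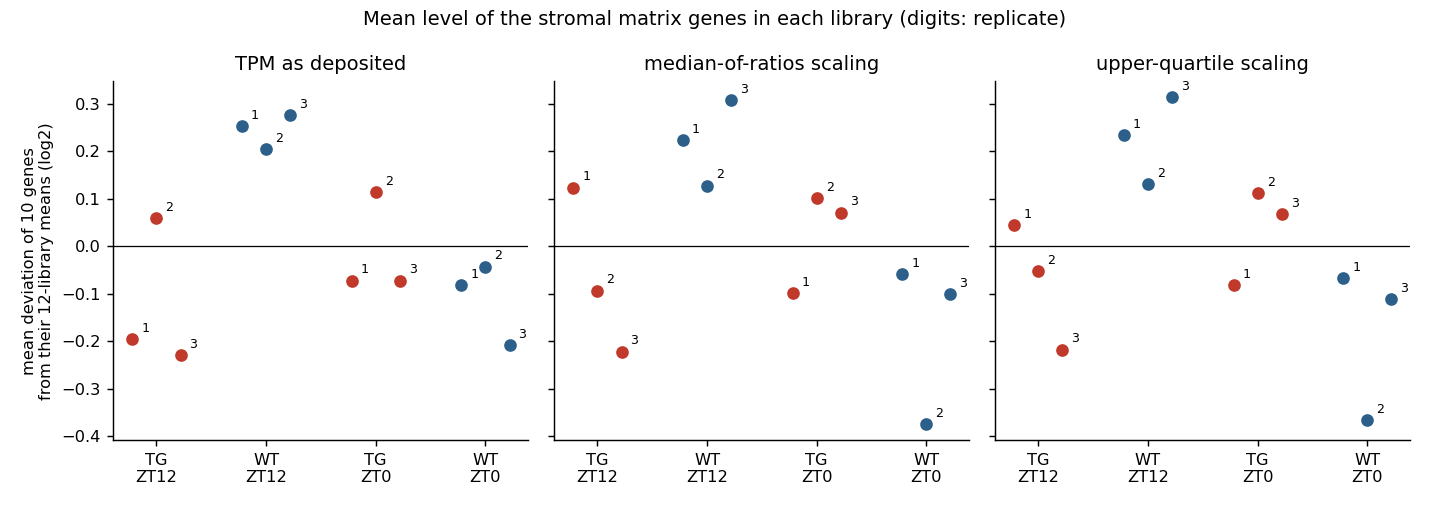
Mean deviation of the 10 genes (log2) in each library, with the replicate number beside each point, for TPM as deposited, after median-of-ratios and after upper-quartile scaling. The 3 WT ZT12 libraries lie highest as deposited (0.20 to 0.28), and TG ZT12 replicate 1 and WT ZT0 replicate 2 shift most between panels.

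The 10 genes went together across libraries to different degrees. Over the 45 pairs, Pearson r across the 12 libraries ran from 0.02 (Bgn and Smoc2) to 0.94 (Dcn and Serpinf1), with a median of 0.52, and all 45 were above 0. With the 4 group means taken off, it ran from -0.54 (Lum and Abi3bp) to 0.89 (Dcn and Serpinf1), with a median of 0.27 and 34 pairs above 0. The libraries share their scaling and depth, so these are descriptions of 12 libraries. The genes were also chosen on differences between the groups, which favours r above 0 where the group means are kept. Against the mean of the other 9 genes, group means taken off, r was 0.81 for Serpinf1, 0.72 for Gsn and 0.69 for Dcn, and it was -0.21 for Abi3bp.

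Outside the 10 genes, those most like their mean profile over the 12 libraries were Twist1 (r = 0.90, rho = 0.85), a transcription factor of mesenchymal cells, Dpt (r = 0.90, rho = 0.88), the matrix protein dermatopontin, Igfbp6 (r = 0.90, rho = 0.90), an IGF-binding protein, Cd34 (r = 0.89, rho = 0.85), a surface sialomucin, and Sfrp2 (r = 0.88, rho = 0.74), a secreted regulator of Wnt signalling. Their log2 differences between TG and WT ran from -0.67 (Sfrp2) to -0.27 (Cd34) at ZT12 and from 0.05 (Cd34) to 0.31 (Sfrp2) at ZT0. These genes were found by likeness to genes chosen on such differences, so their signs follow from that choice and are no support. With the group means taken off, the closest were Thbs3 (0.95), Cadm3 (0.92), Morf4l1 (0.91), Cd34 (0.91) and Wisp2 (0.90), of which Cd34 is in both sets. In this set the log2 difference between TG and WT ran from -0.36 (Cadm3) to 0.11 (Wisp2) at ZT12. At ZT0 it ran from -0.11 (Morf4l1) to 0.20 (Wisp2).

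To check the label, other markers were looked up. Of 25 other markers of fibro-adipogenic cells 22 were in the table, and Gli1, Has1 and Tnfaip6 were not. Their summed level was 419 to 545 TPM in TG ZT12, 489 to 582 TPM in WT ZT12, 433 to 501 TPM in TG ZT0 and 404 to 509.98 TPM in WT ZT0. Their median difference between TG and WT was -0.21 at ZT12, with 20 of 22 below 0 (17 after median-of-ratios scaling). At ZT0 it was 0.05 with 12 of 22 above 0, 0.15 with 16 after median-of-ratios and 0.16 with 17 after upper-quartile scaling. At ZT12 the genes ran from -0.57 (Pi16, a secreted peptidase inhibitor homologue) to 0.21 (Igf1, the growth factor). Most of the listed markers were thus in the table. Their presence in bulk muscle cannot assign the 10 genes to the cell type, and several of the 10 are also made by tendon and vessel cells.

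Between ZT12 and ZT0 over both genotypes, limma called 1 of these 22 markers, the microfibril gene Fbn1, with a log2 difference of 1.25 (SE 0.18, limma adjusted p = 0.0058). Fbn1 stood at 7.81 ± 3.64 TPM in TG ZT12 and 2.89 ± 0.555 TPM in TG ZT0, and at 9.31 ± 1.10 TPM in WT ZT12 and 2.88 ± 0.195 TPM in WT ZT0 (SD, n = 3 each). Fbn1 is also in the list of 23 elastic fibre and other matrix glycoproteins, where it was the 1 gene called.

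The 9 other small leucine-rich proteoglycans of the table had a median difference between TG and WT of -0.50 at ZT12, with 9 of 9 below 0 as deposited and under both scalings, and of -0.11 at ZT0 (0.01 with upper-quartile scaling). At ZT12 the range was from -0.81 (Kera, keratocan) to -0.18 (Podn, podocan). The mean deviation over these 9 genes was 0.66 (log2) in WT ZT12 replicate 1, against 0.21 and 0.15 in replicates 2 and 3. In WT their median between ZT12 and ZT0 was 0.57, with 8 of 9 above 0, and in TG it was -0.04. Limma called 0 of the 9 in each of the 6 comparisons. Kera stood at 5.59 ± 1.84 TPM in TG ZT12 and 10.9 ± 4.75 TPM in WT ZT12 (SD, n = 3 each).

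The 16 collagen genes had a median of -0.21 between TG and WT at ZT12, with 16 of 16 below 0 (13 after median-of-ratios and 14 after upper-quartile scaling), and of -0.06 at ZT0 (0.04 and 0.05 with those scalings). All 16 were above 0 between ZT12 and ZT0 over both genotypes, with a median of 0.34, also under both scalings. Limma called 1 of them, Col5a3, a fibril-forming collagen chain, with a log2 difference of 1.16 (SE 0.14, limma adjusted p = 0.00155). Col5a3 stood at 7.62 ± 2.18 TPM in TG ZT12 and 2.74 ± 0.0965 TPM in TG ZT0, and at 7.72 ± 1.26 TPM in WT ZT12 and 2.90 ± 0.281 TPM in WT ZT0 (SD, n = 3 each). Of 17 genes of collagen assembly and modification, 17 were below 0 between TG and WT at ZT12 (median -0.30, and 15 of 17 under both scalings), and limma called 1 between times, the cross-linking enzyme Loxl2 (0.64, SE 0.11, limma adjusted p = 0.0181). The Loxl2 call was lost without TG ZT0 replicate 1 or 2 or any 1 of the WT ZT12 libraries (limma adjusted p of 0.0581 to 0.0742), while Fbn1 and Col5a3 stayed called under each of the 23 alternatives. The 23 elastic fibre and other glycoprotein genes had a median of -0.31 at ZT12 with 23 below 0 (21 under both scalings). In TG alone the collagens had a median of 0.21 between times with 15 of 16 above 0, where the 10 genes had -0.12; that difference was not tested.

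Around the receptors and the BMP antagonist, the pathway lists had smaller medians in size at ZT12 than the 10 genes (-0.34). At ZT0 the median of the 10 genes was 0.16. The 3 other PDGF genes in the table had a median of -0.03 between TG and WT at ZT12 (0.05 after median-of-ratios scaling) and 0.15 at ZT0. The 34 listed genes of the BMP and TGF-beta pathway had a median of -0.13 at ZT12 (-0.06 after median-of-ratios and -0.07 after upper-quartile scaling) and -0.04 at ZT0 (0.07 and 0.08 with those scalings). At ZT0 they ran from -0.94 (Tgfb1, at 2.64 to 25.2 TPM in the WT ZT0 libraries) to 0.24 (Nog). Limma called 0 of either in each of the 6 comparisons. Between times over both genotypes the pathway genes ran from -0.69 for Smad7, an inhibitor of TGF-beta signalling, to 0.55 for Fst, the activin-binding follistatin. The 4 other SPARC family genes had a median of -0.22 at ZT12, the 5 other serpins -0.21 and the 4 other gelsolin family genes -0.14.

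For the markers of other cell types, the medians between TG and WT at ZT12 lay below 0 as deposited, except that of the red cell markers. Of all genes, 76.6% lay below 0 there. Limma called 0 genes of these lists at ZT12. The 7 tendon markers in the table (Mkx was not) had a median of -0.64 between TG and WT at ZT12, with 7 of 7 below 0 as deposited and under both scalings. Of them, Fmod and Kera are also in the proteoglycan list and Thbs4 in the glycoprotein list. Their summed level was 67.9 to 96.2 TPM in TG ZT12, 102 to 202 TPM in WT ZT12, 53.8 to 119 TPM in TG ZT0 and 77.2 to 85.8 TPM in WT ZT0. The mean deviation over the 7 tendon markers was 1.03 (log2) in WT ZT12 replicate 1, against 0.33 and 0.16 in replicates 2 and 3. The 8 Schwann cell markers (Sox10 and Mag were not in the table) had a median of -0.45 at ZT12, with 8 of 8 below 0 under each of these scalings. Their summed level was 33.1 to 137 TPM in TG ZT12, 80.1 to 138 TPM in WT ZT12, 97.7 to 160.2 TPM in TG ZT0 and 119 to 136 TPM in WT ZT0, with the lowest value in TG ZT12 replicate 1.

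The 9 pericyte and smooth muscle markers had a median of -0.23 at ZT12 and the 10 endothelial markers -0.17, with all of them below 0 as deposited and 7 of 9 and 8 of 10 after median-of-ratios scaling. The 10 macrophage markers had a median of -0.33 at ZT12 and -0.39 at ZT0, and the 7 adipocyte markers -0.13 and -0.55, with 9 of 10 and 4 of 7 below 0 at ZT12. At ZT0 the summed macrophage level was 75.4 to 167 TPM in TG and 107 to 336 TPM in WT. The summed adipocyte level was 217 to 566 TPM in TG ZT0 and 299 to 657 TPM in WT ZT0. The highest WT ZT0 value of both lists was replicate 2, a library that stands apart. The 5 red cell markers stood at 0.31 at ZT12, with 5 of 5 above 0 as deposited and under both scalings. The 12 myofibre markers stood at -0.04 at ZT12 and 0.06 at ZT0, and the 5 satellite cell markers at -0.05 and -0.07, and after median-of-ratios scaling both lists lay above 0 at ZT12 (0.06 and 0.04). Of 7 hepatocyte markers only Cyp2e1 was in the table. No gene of the neutrophil and lymphocyte lists was in the table. The part of any of these cell types in the values of the 10 genes was not tested.

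**Figure D5:**
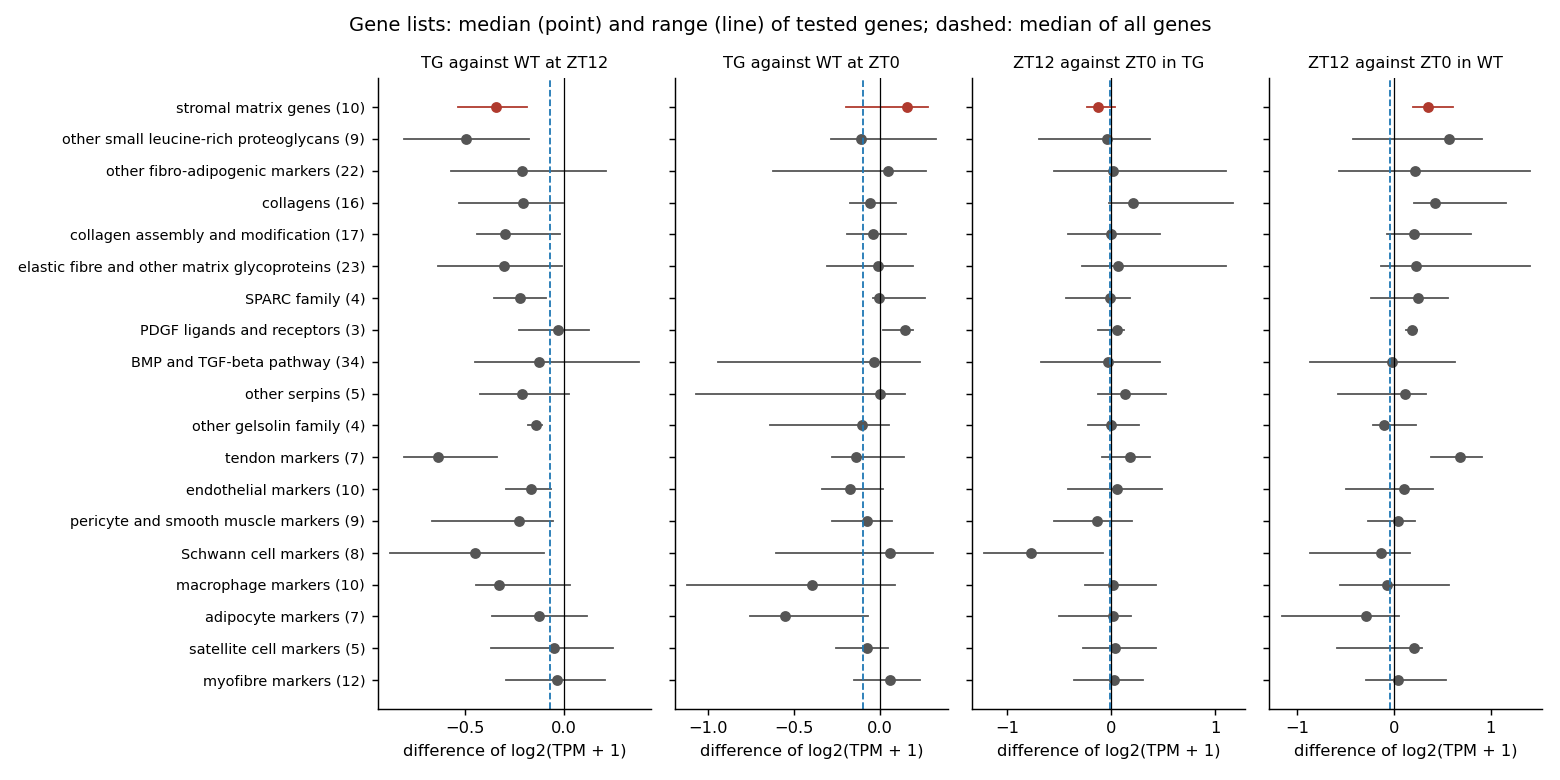
Median (point) and range (line) of the log2 difference for the 10 stromal matrix genes and for the other lists, with the number of tested genes in brackets and a dashed line at the median of all genes, in 4 comparisons from left to right. At ZT12 the points of the proteoglycans (-0.50) and tendon markers (-0.64) lie further below 0 than that of the 10 genes (-0.34). Both lists stood highest in WT ZT12 replicate 1.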

How the data were processed

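Poly(A) RNA of 12 gastrocnemius libraries was made into libraries with the NEBNext Ultra RNA kit, per the labels' protocols, which does not mark strand. Per the submitters' processing notes, bcl2fastq, STAR, HOMER 4.11.1 and DESeq2 were used on mm10. The deposited TPM values, made by the authors, list 10475 genes, and none of them lies under 1.0 TPM in the first WT ZT0 library, so what that library lacked is not analysed here. The further deposited tables, 1 per time, hold the authors' log2 values per library, log2 fold changes, p-values and adjusted p-values, and transcript lengths. TPM times length gave whole reads (within 0.1, under 500 reads) for 99.8 to 99.99% of values.

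Limma 3.58.1 (trend, R 4.3.3) was fitted to log2(TPM + 1) of the 10415 genes with at least 1 TPM in 3 libraries, with 1 mean per group, no replicate block and Benjamini-Hochberg adjusted p under 0.05 as the threshold; fold changes on this scale understate changes of low genes. The fit was tested on simulated data. Figures were drawn with matplotlib 3.10.9 and tables with pandas 2.3.3 and numpy 2.4.6 under Python 3.11.15.

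The members and lists were chosen with earlier results of these data known. Named genes were the 10 members, Nfil3, called list genes (at most 4 a list by smallest p) or the extremes of a list, and the 5 genes most like the members by either measure; Mir7025, Gm42802 and Gm42803 were named after their overlap was seen. Replicate numbers come from the labels, which name no animal shared between same-numbered libraries. Alternatives were other scalings, filters and pseudocounts, limma-voom on recovered reads, the 2 groups alone, a replicate block, the 10 highest genes removed, and libraries left out. Depth behind the values is the recovered reads, which exclude unlisted genes.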

Additional observations from a re-analysis of the deposited data

Results flagged for a closer look

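For Dcn, Serpinf1 and Smoc2, every TG library lay below every WT library at ZT12 and above every WT library at ZT0, so that the genotype effect had opposite signs at the 2 times in all libraries. The genotype effect at ZT12 less that at ZT0 was -0.49 for Dcn, -0.62 for Serpinf1 and -0.46 for Smoc2 (log2 scale, SE 0.15, 0.19 and 0.14). The genes were chosen with this difference in view, so that it is a description, and limma called 0 of 10415 genes for the interaction. After median-of-ratios or upper-quartile scaling, 0 of the 10 genes kept the complete separation at both times, while the interaction median of the 10 genes was -0.49 with median-of-ratios scaling, against -0.47 as deposited.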

How the results depend on the processing

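Limma called 0 of the 10 genes in every comparison under every alternative run. Over both genotypes, 92 genes were called between times as deposited, 204 with median-of-ratios scaling, 191 with upper-quartile scaling, 195 with quantile normalization, 194 with limma-voom, 419 without TG ZT12 replicate 1 and WT ZT0 replicate 2 together, and 47 to 157 with 1 library left out (157 without TG ZT12 replicate 1, and 47 to 58 without TG ZT0 replicate 1 or 2 or any WT ZT12 library). In TG the 16 calls became 31, 29, 33, 28 and 71 in the same order, 3 with the 2 groups alone, and 6 to 21 with 1 library left out (6 to 10 without any 1 TG ZT0 library, 8 without TG ZT12 replicate 3). In WT the 12 calls became 55, 47, 52, 56 and 73, 22 with the 10 highest genes removed, and 4 to 35 with 1 library left out (35 without TG ZT12 replicate 1, 22 without TG ZT12 replicate 2, and 4 to 6 without WT ZT0 replicate 1 or 3 or any 1 WT ZT12 library). Between genotypes, the 0 calls at ZT0 became 1 with the 2 groups alone and 0 to 1 with 1 library left out (1 without TG ZT12 replicate 3), and the 0 at ZT12 became 2 without both libraries that stand apart. The cause of these moves was not tested.

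The median of the 10 genes at ZT0, 0.16, was 0.26 with median-of-ratios and 0.27 with upper-quartile scaling, and 0.0258 to 0.23 with 1 library left out. At ZT12, -0.34 as deposited, it was -0.47 to -0.28 with 1 library left out (-0.47 without TG ZT12 replicate 2). The 7 genes with separate genotypes at ZT12, a count added after seeing the data, became 2 with median-of-ratios scaling, 4 with upper-quartile scaling and 4 with quantile normalization (2.54% of all genes), and 7 to 9 with 1 library left out (4.26% to 20.4% of all genes; 9 and 20.4% without TG ZT12 replicate 2).

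Signs near 0 changed. Between times over both genotypes Gsn, -0.01 as deposited, was 0.022 with median-of-ratios and 0.0169 with upper-quartile scaling and 0.0418 without both libraries that stand apart. With 1 library left out it was -0.0592 to 0.0606, Bgn -0.0185 to 0.24 and Pdgfra -0.0385 to 0.15. In TG, Serpinf1 was 0.0135 with median-of-ratios scaling and -0.14 to 0.14 with 1 library left out, Bgn 0.10 and Pdgfra 0.0561 without both libraries (-0.27 to 0.10 and -0.32 to 0.0561 with 1 left out), and Pdgfrl -0.0444 to 0.12. The labels do not say that replicate numbers pair samples. The correlation of deviations was -0.35 to 0.29 in 18 same-numbered pairs (median 0.06, against -0.02 in 36 others), which cannot decide it. At ZT12 the summed red cell level was highest in replicate 2 of both genotypes (4565 TPM in TG, 4257 TPM in WT). It was lowest in replicate 3 (145 and 176 TPM). With a replicate block limma called 96 genes between times over both genotypes and 0 of the 10. The filter of 5 TPM left out Abi3bp and Pdgfrl. Pdgfrl rests on 34 to 148 reads a library, which limits what its values can show.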
